A study of Mus musculus with 7 samples.

Results

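The kinetochore and spindle genes Spc25 and Knstrn were described in mouse eye RNA with their partner genes Spc24, Ndc80, Nuf2 and Spag5 and with Mki67 and Top2a as signs of division, 8 genes of the 54532 in the deposited table. The set was chosen on measured values, because Spc25 and Knstrn stood lower in Agbl5 knockout libraries. The other 6 genes were added for the complexes they belong to or as signs of division. The study set 3 knockout libraries against 2 heterozygous and 2 wildtype libraries, all labelled eyeball in a field for tissue and extracted from retina according to the protocol. Agbl5 encodes CCP5, an enzyme that trims glutamate chains from tubulin, and the series was designed to ask what it does in photoreceptors. The labels gave neither strain, age nor sex, nor the nature of the knockout allele, nor whether the libraries of a genotype came from separate animals, so p-values measure only the spread between these libraries.

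The NDC80 complex is a rod of 4 proteins that joins chromosomes to the spindle during cell division. Ndc80 and Nuf2 form the end that holds microtubules, and Spc24 and Spc25 form the end that docks on the kinetochore, the protein platform on the centromere. Knstrn encodes the small kinetochore-associated protein SKAP, which works with astrin, the product of Spag5, to stabilise the attachment of microtubules to kinetochores. The products of Mki67 and Top2a, the Ki67 antigen and DNA topoisomerase II alpha, mark dividing cells. Neurons of the mature retina, photoreceptors included, have left the cell cycle.

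Gene starts of 7 of the 8 genes were found in the RefSeq promoter table (GRCm38.p6), each as a window of 300 bases that runs from 250 bases before the start to 50 after it. The windows of the genes above 1 FPKM (sequenced fragments scaled for gene length and library size) and of the subunit nearest to 0 are shown, for the elements usual in genes of cell division that each one carries or lacks. Those elements are the cell cycle homology region TTTGAA and the CCAAT box. They were searched on both strands together with the E2F elements TTCCCGC and TTGGCGC and with TAATCC, the element of the photoreceptor factor CRX. Matches are in capitals and none overlap, and each sequence is written 5′ to 3′ on the strand of its gene. The windows are chr2:69206164-69206463 on the minus strand for Spc25, chr11:78301341-78301640 on the plus strand for Spag5, chr17:71526808-71527107 on the minus strand for Ndc80 and chr2:118813753-118814052 on the plus strand for Knstrn.
Spc25: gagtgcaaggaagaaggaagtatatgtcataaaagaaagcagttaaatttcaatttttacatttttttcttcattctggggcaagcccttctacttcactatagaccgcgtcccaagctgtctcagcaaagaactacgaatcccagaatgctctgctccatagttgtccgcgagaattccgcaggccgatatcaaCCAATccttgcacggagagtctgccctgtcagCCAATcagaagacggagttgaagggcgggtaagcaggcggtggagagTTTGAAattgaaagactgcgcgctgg
Spag5: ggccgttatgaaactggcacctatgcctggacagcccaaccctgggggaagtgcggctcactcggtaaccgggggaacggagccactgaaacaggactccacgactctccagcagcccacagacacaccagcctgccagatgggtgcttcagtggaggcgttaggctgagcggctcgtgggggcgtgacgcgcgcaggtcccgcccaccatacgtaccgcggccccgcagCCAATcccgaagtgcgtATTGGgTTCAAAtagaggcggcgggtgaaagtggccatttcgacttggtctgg
Ndc80: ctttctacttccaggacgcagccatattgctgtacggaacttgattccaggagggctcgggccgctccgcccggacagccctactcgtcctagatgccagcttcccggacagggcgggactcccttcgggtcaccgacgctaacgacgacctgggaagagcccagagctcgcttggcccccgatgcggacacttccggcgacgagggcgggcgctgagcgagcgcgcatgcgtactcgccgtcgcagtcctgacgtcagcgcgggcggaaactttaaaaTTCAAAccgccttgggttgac
Knstrn: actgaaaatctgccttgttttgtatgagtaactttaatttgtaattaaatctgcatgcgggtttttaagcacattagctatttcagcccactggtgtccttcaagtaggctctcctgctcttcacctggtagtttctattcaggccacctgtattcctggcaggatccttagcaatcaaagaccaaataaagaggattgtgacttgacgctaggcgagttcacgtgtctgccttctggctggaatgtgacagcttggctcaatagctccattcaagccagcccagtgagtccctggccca

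The Spc25 window held 2 CCAAT boxes and 1 TTTGAA, as did the Spag5 window, where 1 CCAAT box and the TTTGAA lie on the opposite strand. The Ndc80 window held 1 TTTGAA on the opposite strand and no CCAAT box. The Knstrn window and the Nuf2 window, which is not printed, held none of the 5 elements. For Knstrn the window covers the start of 1 of 9 annotated transcripts, for Ndc80 1 of 5, for Spag5 2 of 8 and for Spc25 4 of 9. For Nuf2 it covers 3 of 5, for Mki67 1 of 2 and for Top2a 2 of 7. The windows thus say little about the other starts of each gene. The windows of the division markers held most: 3 CCAAT boxes, 2 TTTGAA and 1 TTGGCGC for Mki67, and 6 CCAAT boxes and 2 TTTGAA for Top2a. Of all 32851 windows in the table, 17.9% held TTTGAA, 37.4% a CCAAT box, 6.81% either E2F element and 7.06% TAATCC. A match is a run of letters and no measure of binding.

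The libraries held 12238268 to 14327633 reads recovered from the FPKM values, and a single read added 0.0663 to 0.0766 FPKM to a gene 1 kilobase long. All 12 photoreceptor markers were above 0 in every library. Agbl5, the targeted gene, averaged 1.51 ± 0.233 FPKM in knockout (SD, n = 3), 4.78 ± 0.805 FPKM in heterozygous (n = 2) and 9.23 ± 0.935 FPKM in wildtype libraries (n = 2), and fell in knockout against wildtype by 2.03 ± 0.13 on the log2(FPKM + 1) scale (SE; limma, adjusted p = 0.00406). That call was lost without wildtype 1 (adjusted p = 0.0768) or wildtype 2 (adjusted p = 0.0728), with differences of -1.93 and -2.12. Lens transcripts set knockout 1 and heterozygous 1 apart, with Cryaa, a lens crystallin gene, at 2541 and 1733 FPKM there and at most 12.3 FPKM in the other 5 libraries. Knockout 3 and wildtype 2 had 158 and 181 FPKM of Xist, the RNA of the inactive X, and Ddx3y, a Y-linked gene, was listed at 0 in both. In the other 5 libraries Ddx3y was at 15.3 to 17.7 FPKM and Xist at most at 0.0381 FPKM, so those were male and the first pair female.

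Spc25 was abundant, above 88.2% of all genes tested in mean FPKM, and stood lower in all knockout libraries. Spc25 (ENSMUSG00000005233, chromosome 2, 69193895 to 69206194 on the minus strand of GRCm38, 7 merged exons over 3188 bases) was at 18.4, 21.0 and 19.3 FPKM in knockout libraries 1, 2 and 3. It was at 25.9 and 28.4 FPKM in heterozygous 1 and 2, and at 29.9 and 29.6 FPKM in wildtype 1 and 2. All 3 knockout libraries lay below all 4 others, with a gap of 4.97 FPKM between the highest knockout and the lowest control library. The mean was 19.5 ± 1.33 FPKM in knockout (n = 3), 27.1 ± 1.71 FPKM in heterozygous (n = 2) and 29.8 ± 0.212 FPKM in wildtype libraries (n = 2). The knockout mean was 0.656 times the wildtype mean, 0.719 times the heterozygous mean and 0.686 times the mean of all 4 controls. On the scale of log2(FPKM + 1) the knockout difference was -0.59 ± 0.08 (SE) against wildtype, -0.46 ± 0.08 against heterozygous and -0.52 ± 0.07 against all controls. The gene was chosen on this difference, so it is given with no p. The value rested on 774 to 943 reads in knockout, 1168 and 1180 in heterozygous and 1396 and 1425 in wildtype libraries. No annotated exon of another gene overlaps it. The one gene above 1 FPKM within 100000 bases was Cers6, which encodes a ceramide synthase, at 3.32 FPKM in knockout and 3.41 FPKM in control libraries on average.

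Knstrn, above only 17.8% of all genes tested in mean FPKM, stood further below its controls in knockout as a ratio. Knstrn (ENSMUSG00000027331, chromosome 2, 118814003 to 118853957 on the plus strand, 10 merged exons over 5158 bases) was at 1.52, 1.03 and 1.08 FPKM in knockout libraries 1, 2 and 3. It was at 2.96 and 2.90 FPKM in heterozygous 1 and 2, and at 2.31 and 2.74 FPKM in wildtype 1 and 2. The knockout libraries again lay below all controls, with a gap of 0.782 FPKM. The mean was 1.21 ± 0.272 FPKM in knockout (n = 3), 2.93 ± 0.0483 FPKM in heterozygous (n = 2) and 2.52 ± 0.305 FPKM in wildtype libraries (n = 2). The knockout mean was thus 0.48 times the wildtype mean, 0.413 times the heterozygous mean and 0.444 times the mean of all controls. On the log2(FPKM + 1) scale, which understates differences at this level, knockout differed by -0.68 ± 0.14 (SE) from wildtype, -0.84 ± 0.14 from heterozygous and -0.76 ± 0.12 from all controls. On recovered reads with limma-voom the difference from all controls was -1.18 ± 0.17. This difference chose the gene and carries no p either. The value rested on 75 to 104 reads in knockout, 216 and 195 in heterozygous and 174 and 213 in wildtype libraries.

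**Figure D1:**
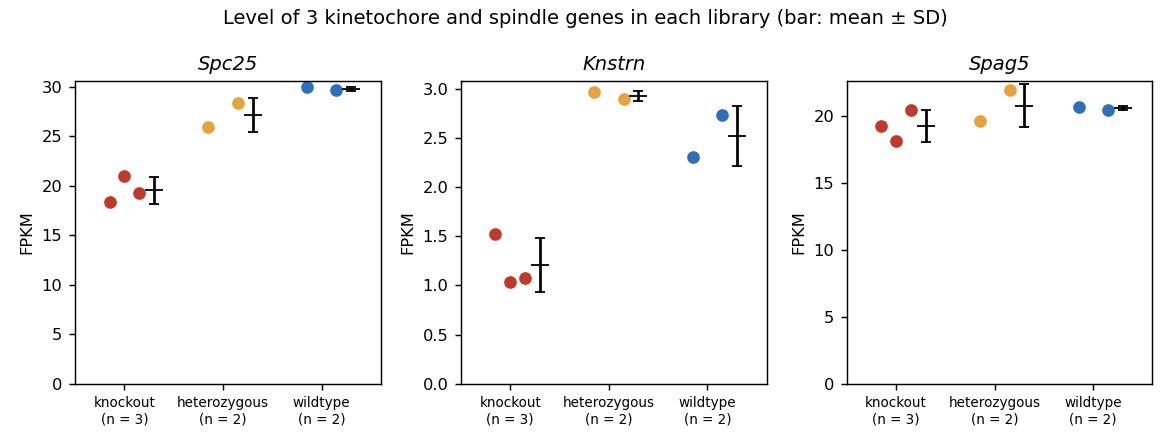
FPKM of Spc25, Knstrn and Spag5 (vertical axes from 0) in each of the 3 knockout, 2 heterozygous and 2 wildtype libraries, with each group's mean ± SD as a bar beside its points. The knockout points of Spc25 (18.4 to 21.0 FPKM) and Knstrn (1.03 to 1.52 FPKM) lie below every other point, and those of Spag5 (18.1 to 20.5 FPKM) do not.

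A noncoding gene on the other strand of Knstrn was lower in the same libraries. Gm14091 (chromosome 2, 118829874 to 118834122 on the minus strand, annotated as antisense) shares 123 of its 874 exon bases with Knstrn exons, and these make up 2.39% of the exon bases of Knstrn. It was at 4.24, 5.84 and 5.44 FPKM in knockout libraries, at 8.51 and 10.5 FPKM in heterozygous libraries and at 8.996 and 11.5 FPKM in wildtype libraries. The knockout libraries lay below all controls. The gene fell in knockout against all controls by 0.82 on the log2(FPKM + 1) scale, with an SE of 0.13 (limma, adjusted p = 0.0422 over all genes tested). It did not pass against wildtype (-0.86 ± 0.16; limma, adjusted p = 0.166) or heterozygous (-0.77 ± 0.16; limma, adjusted p = 0.187). The call held in 4 of 14 alternatives, over which the log2 difference lay between -1.02 and -0.70. Leaving out any single library other than heterozygous 1 ended it, with adjusted p of 0.0843 to 0.133 (limma). The library kit did not mark the strand, so reads of Knstrn, spliced or not, and of Gm14091 cannot be told apart where the genes overlap. The values of both are therefore uncertain. Gm14091 was looked at because it overlaps Knstrn, a gene chosen for its fall in knockout, so its p-values are not independent of that choice. Within 100000 bases of Knstrn, 6 other genes averaged over 1 FPKM. Disp2, the nearest, averaged 19.4 FPKM in knockout and 20.6 FPKM in control libraries, Ivd, the isovaleryl-CoA dehydrogenase gene, 30.6 FPKM in both, and Inafm2 13.0 FPKM in knockout and 12.6 FPKM in control libraries. Ccdc9b averaged 2.40 FPKM in knockout and 2.32 FPKM in control libraries, and Chst14 1.24 FPKM in knockout and 1.33 FPKM in control libraries. Bahd1 was at 6.68, 6.85 and 6.11 FPKM in knockout libraries, above the 5.53 and 5.11 FPKM in heterozygous and 5.47 and 5.73 FPKM in wildtype libraries.

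Spag5, whose product astrin binds the product of Knstrn, had a level near that of Spc25 and passed no test between genotypes. Spag5 (ENSMUSG00000002055, chromosome 11, 78301529 to 78322457 on the plus strand, 21 merged exons over 5624 bases) was at 19.2, 18.1 and 20.5 FPKM in knockout, at 19.6 and 21.9 FPKM in heterozygous and at 20.7 and 20.5 FPKM in wildtype libraries. The knockout and control libraries overlapped. Knockout differed from all controls by -0.10 ± 0.06 on the log2(FPKM + 1) scale (SE; limma, adjusted p = 0.547), from wildtype by -0.09 ± 0.08 (adjusted p = 0.845) and from heterozygous by -0.10 ± 0.08 (adjusted p = 0.612). No alternative called it.

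The other subunits of the NDC80 complex were near 0 where Spc25 was not. Spc24, the dimer partner of Spc25 (chromosome 9, 21755442 to 21760303), was at 0.118, 0.110 and 0.142 FPKM in knockout, 0.138 and 0.208 FPKM in heterozygous and 0.0531 and 0.206 FPKM in wildtype libraries, on 2 to 8 reads each. Nuf2 (chromosome 1, 169497934 to 169531464) was at 0.250, 0.190 and 0.0807 FPKM in knockout, 0.391 and 0.242 FPKM in heterozygous and 0.216 and 0.178 FPKM in wildtype libraries, on 7 to 35 reads. Ndc80 (chromosome 17, 71496100 to 71526857) was at 0.0233 and 0.0338 FPKM in knockout 1 and 3 and at 0.0327 FPKM in heterozygous 1, with 2, 3 and 3 reads. It was at 0.0105 and 0.0511 FPKM in wildtype 1 and 2, with 1 and 5 reads. It was listed at 0 in knockout 2 and heterozygous 2, where 0 reads allow up to 3, or 0.0327 and 0.0354 FPKM. Knockout and control libraries overlapped in all 3 genes. Nuf2 had 35 and 20 reads in heterozygous and 20 and 17 reads in wildtype libraries.

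Per kilobase of gene, and over all 7 libraries, the Spc25 level was 177 times that of Spc24 (95% exact Poisson interval of the partner's reads, 127 to 254), 111 times that of Nuf2 (94.3 to 133) and 1139 times that of Ndc80 (679 to 2084). These intervals cover counting error only. The ratio of Spc25 to Nuf2 was 112 in knockout and 111 in control libraries. That to Spc24 was 158 in knockout and 188 in control libraries, and that to Ndc80 was 1027 and 1208. In knockout these ratios rested on 45 reads of Nuf2, 13 of Spc24 and 5 of Ndc80. No interval was computed for them by group, so the groups are not compared.

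**Figure D2:**
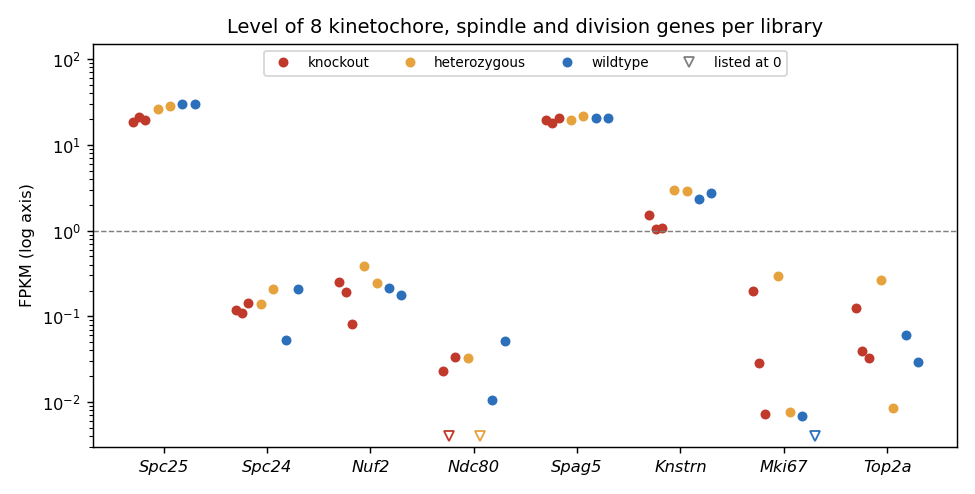
FPKM on a log axis of the 8 genes in each library, coloured by genotype, with open triangles at the foot for libraries where a gene was listed at 0 and a dashed line at 1 FPKM. Spc25, Spag5 and Knstrn lie above 1 FPKM in all 7 libraries, and the other 5 genes reach at most 0.391 FPKM.

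The division markers were near 0 too, and highest in the libraries rich in lens transcripts. Mki67 (chromosome 7, 135689784 to 135716361) was at 0.195, 0.0282 and 0.00727 FPKM in knockout libraries 1, 2 and 3, on 26, 4 and 1 reads. It was at 0.296 and 0.00762 FPKM in heterozygous 1 and 2, on 42 and 1 reads, at 0.00680 FPKM in wildtype 1 on 1 read, and listed at 0 in wildtype 2, which allows up to 0.0198 FPKM. Top2a (chromosome 11, 98992943 to 99024189) was at 0.126, 0.0393 and 0.0325 FPKM in knockout, at 0.267 and 0.00850 FPKM in heterozygous and at 0.0607 and 0.0294 FPKM in wildtype libraries, on 1 to 34 reads. Knockout 1 and heterozygous 1 were the highest of their genotype and of all libraries for both genes. The mean log2(FPKM + 1) level of the 15 lens genes was 7.19 in knockout 1 and 6.58 in heterozygous 1, and between 0.73 and 1.70 in the other 5 libraries. The sum over the lens genes ran from 26.5 to 7751 FPKM in knockout and from 31.1 to 4724 FPKM in control libraries. Of the 15 lens genes, 0 were at 0 in knockout 1, knockout 3 and heterozygous 1, and 1 to 3 were at 0 in the other 4 libraries. Summed genes of pigmented cells and of the cornea were highest in knockout 1 and heterozygous 1 too. They were at 363 and 346 FPKM for pigmented cells, and at 155 to 251 FPKM in the other 5 libraries. For the cornea they were at 8.52 and 5.60 FPKM, and at 0.973 to 4.73 FPKM in the other 5 libraries. The most abundant gene on the list for pigmented cells is also on that for Mueller glia. The sums for pigmented cells, here and below, are therefore not of pigmented cells alone. The part of lens, pigmented or cornea cells in the reads of Mki67 and Top2a was not tested. Without knockout 1 and heterozygous 1 the log2 difference of knockout from all controls was -0.52 ± 0.06 (SE) for Spc25 and -0.82 ± 0.12 for Knstrn.

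**Figure D3:**
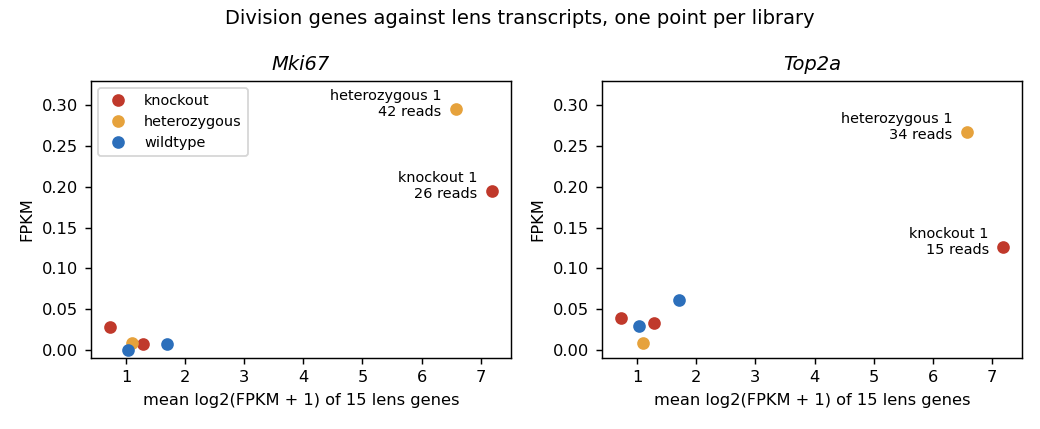
FPKM of Mki67 and Top2a (vertical axes) against the mean log2(FPKM + 1) level of 15 lens genes (horizontal axes), 1 point per library, coloured by genotype. The points at the right, knockout 1 with 26 reads of Mki67 and 15 of Top2a and heterozygous 1 with 42 and 34, lie above the other 5 libraries in both panels.

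With a minimum of 1 FPKM on average, 3 of the 8 genes, Spc25, Knstrn and Spag5, entered the tests over 15472 genes, and the other 5 did not. At an adjusted p below 0.05, limma called 0.323% of all genes tested between knockout and wildtype, with Spc25 among them, and 0.317% between knockout and heterozygous, with none of the 3. It called 0.614% between knockout and all controls, with Spc25 and Knstrn among them. Every knockout library lay below every control library in 6.26% of all genes tested, as in Spc25 and Knstrn. These comparisons share the knockout libraries and are the ones that chose the set, so nothing is read from the counts. Against all controls, Spc25 passed in 4 and Knstrn in 3 of 14 alternatives, which refit the same libraries. Both genes were chosen on this difference, so nothing is read from these passes either. In a limma fit with no minimum, the other 5 genes did not pass in any of the 4 comparisons, with adjusted p from 0.681 to 1.

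Heterozygous against wildtype is the comparison whose difference uses no knockout library, and it asks whether the loss of 1 Agbl5 allele moved these genes. Its SE and p still draw on the spread of the knockout libraries, because the 3 genotypes share a fit. Spc25 averaged 27.1 ± 1.71 FPKM in heterozygous and 29.8 ± 0.212 FPKM in wildtype libraries (SD, n = 2 each), a log2 difference of -0.13 ± 0.08 (SE; limma, adjusted p = 0.974). Knstrn averaged 2.93 ± 0.0483 FPKM in heterozygous and 2.52 ± 0.305 FPKM in wildtype libraries, a difference in the other direction of 0.16 ± 0.15 (limma, adjusted p = 0.974). Single libraries moved both values: Spc25 differed by -0.07 without heterozygous 1, and Knstrn by 0.07 without wildtype 1 and 0.25 without wildtype 2. Spag5 averaged 20.7 ± 1.62 FPKM in heterozygous and 20.6 ± 0.149 FPKM in wildtype libraries (0.01 ± 0.08; limma, adjusted p = 0.995). Of these genes 0 passed, and limma called 0 of all genes tested, 0%, with 619 at an unadjusted p under 0.05. Limma-voom on recovered reads also called 0, with 553 at an unadjusted p under 0.05. For Spc25 the genotypes thus stood, low to high, as knockout, heterozygous and wildtype, and for Knstrn as knockout, wildtype and heterozygous. The difference between the last pair passed for neither gene. Agbl5 itself, at 4.78 FPKM in heterozygous and 9.23 FPKM in wildtype libraries, did not pass here either (-0.83 ± 0.14; limma, adjusted p = 0.974). The comparison missed a difference of that size, so the lack of a call does not show that Spc25 or Knstrn stayed the same.

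Photoreceptor and microglia markers differed in level between knockout and control libraries, and no list was tested. Of 12 photoreceptor markers, 6 were lower and 1 higher in every knockout library than in every control library, and their sum was 8311 to 8458 FPKM in knockout and 9117 to 10221 FPKM in control libraries, with 0 markers at 0. Of all genes tested, 6.26% were lower and 6.75% higher in every knockout library than in every control library. Of 12 microglia and macrophage markers, 10 were higher and 0 lower in every knockout library, with sums of 35.5 to 39.0 FPKM in knockout and 18.7 to 19.3 FPKM in control libraries and 0 markers at 0. C1qb, a complement gene of microglia, was at 8.87 to 10.5 FPKM in knockout and 4.49 to 5.18 FPKM in control libraries. Glul, the glutamine synthetase gene of Mueller glia, was at 556 to 562 FPKM in knockout and 559 to 667 FPKM in control libraries. The sums of the other lists overlapped between the groups, though 2 of 8 Mueller glia genes and 1 of 10 genes of pigmented cells were higher in every knockout library. They were 1096 to 1208 FPKM in knockout and 1037 to 1172 FPKM in control libraries for Mueller glia, and 185 to 363 FPKM in knockout and 155 to 346 FPKM in control libraries for pigmented cells. They were 44.6 to 46.9 FPKM in knockout and 37.1 to 48.8 FPKM in control libraries for vessels, and 31.1 to 43.5 FPKM in knockout and 32.7 to 68.6 FPKM in control libraries for red blood cells. The 6 cornea genes, of which up to 1 was at 0 in a library, summed to 0.973 to 8.52 FPKM in knockout and 1.97 to 5.60 FPKM in control libraries. In whole tissue, fewer cells of a type and less RNA per cell cannot be told apart, and the part of these shifts in the levels of Spc25 and Knstrn was not tested. Among the 5 male libraries the log2 difference of knockout from all controls was -0.49 ± 0.10 for Spc25 and -0.71 ± 0.16 for Knstrn (SE). The females, knockout 3 and wildtype 2, stood at 19.3 and 29.6 FPKM for Spc25 and at 1.08 and 2.74 FPKM for Knstrn.

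The wider set of division genes was compared in 7 lists with 103 genes in the table, of which 47 averaged under 1 FPKM and 56 were tested. Only 3 of the 103 averaged as much as Spc25 and 5 as much as Spag5, and the median of the means was 1.21 FPKM. None of the 56 was called by limma in any of the 4 comparisons, beside 0.614% of all genes for knockout against all controls. An unadjusted p under 0.05 was reached by 7 of the 56 for knockout against all controls (12.5%, beside 12.2% of all genes tested), by 5 against wildtype (8.93%, beside 7.5%), by 3 against heterozygous (5.36%, beside 12%) and by 2 for heterozygous against wildtype (3.57%, beside 4%). In 7 of the 56, or 12.5%, every knockout library lay below every control library, beside 6.26% of all genes tested. These were Cenpa, Mad2l1, Haus1, Haus4, Ckap5, Clasp1 and Ska2, and 1 gene, Bub1b, lay above throughout, beside 6.75% of all genes tested.

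The partners nearest to the NDC80 complex at the kinetochore were tested for 3 of 6 genes, of which 0 passed, and the other 3 averaged under 1 FPKM, with 0.184 FPKM as the lowest mean. Zwint, which encodes a protein bound to the kinetochore scaffold Knl1, was the most abundant of all division genes listed, at 71.5 ± 2.69 FPKM in knockout (SD, n = 3) and 75.5 ± 2.55 FPKM in control libraries (n = 4). Mis12, a subunit of the complex on which Spc24 and Spc25 dock, was at 9.07 ± 0.714 FPKM in knockout and 8.47 ± 0.451 FPKM in control libraries. Pmf1, from the same complex, was at 3.02 and 2.75 FPKM in knockout and control libraries. The list had a median log2 difference of 0.09 between knockout and all controls over 3 tested genes, beside 0.00 over all genes. Of 21 centromere genes 10 were tested, with a median of 0.02. Cenpx averaged 16.7 and 16.4 FPKM in knockout and control libraries, Cenpb 15.6 and 13.9 FPKM, and Cenpa, the centromeric histone, 0.885 and 1.42 FPKM (-0.36 ± 0.13; limma, adjusted p = 0.344).

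Among the partners of Knstrn and astrin, Dynll1, the dynein light chain LC8, averaged 25.4 ± 3.03 FPKM in knockout (SD, n = 3) and 21.8 ± 3.05 FPKM in control libraries (n = 4). Mycbp averaged 3.88 and 4.62 FPKM in knockout and control libraries. Ska2, of the Ska complex that couples kinetochores to microtubules, averaged 7.34 ± 0.269 FPKM in knockout and 8.19 ± 0.409 FPKM in control libraries (-0.14 ± 0.06; limma, adjusted p = 0.396). The median of the 3 tested genes of this list was -0.14. Of the spindle checkpoint, Zw10 averaged 11.7 and 11.95 FPKM in knockout and control libraries and Mad2l1bp 8.37 and 8.18 FPKM. The checkpoint kinase family gene Bub1b averaged 9.36 ± 0.647 FPKM in knockout and 6.66 ± 1.61 FPKM in control libraries (0.46 ± 0.16; limma, adjusted p = 0.338). Mad2l1 averaged 1.69 ± 0.0229 FPKM in knockout and 2.25 ± 0.214 FPKM in control libraries (-0.27 ± 0.09; limma, adjusted p = 0.302). The median over 6 tested checkpoint genes was 0.00.

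Of 10 mitotic kinase and passenger complex genes only Incenp and Plk1 were tested, at 7.11 and 1.31 FPKM in knockout and at 7.31 and 1.06 FPKM in control libraries. The spindle list held most genes in use, with 21 of 24 tested and a median of -0.03. Ckap5, a microtubule polymerase, averaged 28.9 ± 0.490 FPKM in knockout and 31.1 ± 0.496 FPKM in control libraries, and Numa1, which organises spindle poles, 28.7 ± 0.251 and 26.9 ± 1.49 FPKM in knockout and control libraries. Haus1, a subunit of the augmin complex that branches spindle microtubules, averaged 12.9 ± 0.797 FPKM in knockout and 17.5 ± 2.53 FPKM in control libraries (-0.40 ± 0.11; limma, adjusted p = 0.219). Tubgcp6, of the gamma-tubulin ring, averaged 6.71 and 6.11 FPKM in knockout and control libraries. Of 25 other division genes 11 were tested, with a median of -0.03. Among them Pcna, the sliding clamp of DNA replication and repair, averaged 23.7 and 22.1 FPKM in knockout and control libraries, Ccna2, cyclin A2, 7.15 and 7.21 FPKM, Mcm2 1.72 and 1.51 FPKM, and Nusap1 1.22 and 1.45 FPKM.

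**Figure D4:**
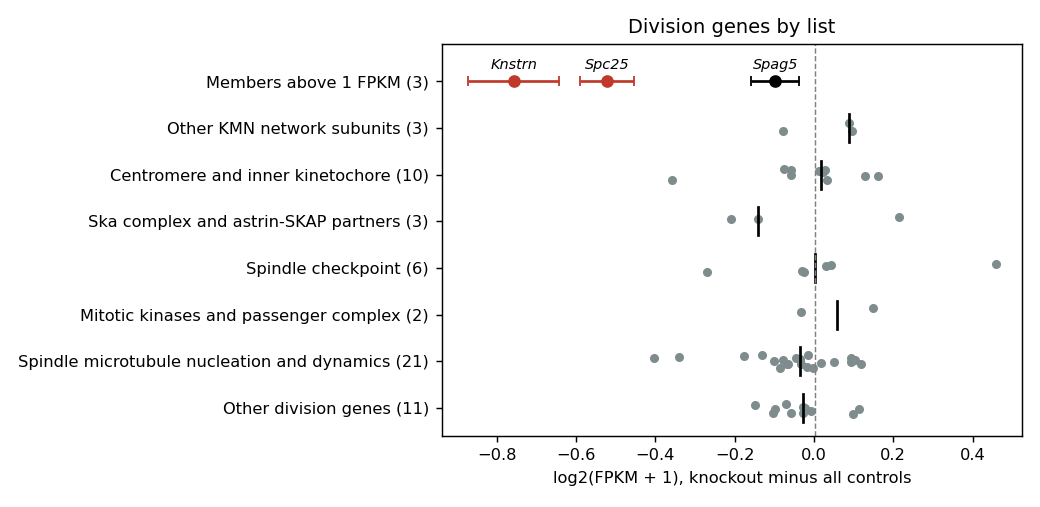
Difference of log2(FPKM + 1) between knockout and all controls (horizontal axis) for Spc25, Knstrn and Spag5 with SE bars at the top and for each tested gene of 7 lists below, with the list's median as a black tick and the median of all genes tested as a dashed line. Knstrn (-0.76) and Spc25 (-0.52) were chosen for their place at the left, and the listed genes lie between -0.40 and 0.46.

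Likeness of pattern was taken as the root mean square difference between log2(FPKM + 1) values, each gene centred on its mean over the 7 libraries, among 11944 named protein coding genes tested. The genes most like Spc25 were Fam3c (0.0740), Gas2 (0.0882), Rabgef1 (0.0972), Msh5 (0.104) and Elavl4 (0.105). Fam3c was at 47.7 to 48.9 FPKM in knockout and 60.7 to 72.0 FPKM in control libraries, and Rabgef1 at 68.7 to 71.7 FPKM in knockout and 102 to 109 FPKM in control libraries. The genes most like Knstrn were Rabgef1 (0.152), Crxos (0.155), Sh2d1a (0.173), Hdc (0.175) and H2al2a (0.176). Crxos was at 15.9 to 17.4 FPKM in knockout and 22.99 to 28.2 FPKM in control libraries. Spc25 and Knstrn differed from each other by 0.220. None of the genes named here is on the 7 division lists, and since Spc25 and Knstrn were chosen for a low level in knockout, a low level there in the genes most like them follows from the choice.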

How the data were processed

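Polyadenylated RNA of 7 mouse libraries was sequenced from NEBNext Ultra libraries, a kit that does not mark the strand, per the labels' protocols. The authors deposited 1 table of FPKM for 54532 genes, with TopHat2 2.0.9, Bowtie2 2.0.6, HTSeq, DESeq and the builds mm10 and GRCm38 named in the submitters' processing notes; order, settings and annotation are not given in the sources used here. With exon lengths of GENCODE M21, 96.8% of nonzero values turned into whole reads (tolerance 0.01), which are the reads quoted.

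FPKM were tested as log2(FPKM + 1) with limma 3.58.1 in R 4.3.3 (empirical Bayes with a trend, Benjamini-Hochberg over the 15472 genes that averaged 1 FPKM or more, threshold 0.05). A fit with 3 genotypes gave 3 comparisons and a fit with 2 groups gave knockout against all controls. The fit was tested on simulated data that held no lens-rich libraries and no difference of sex, so that test does not show how the fit handles them. Members, gene lists and the rule for named genes (all 8 members, genes overlapping them, the 2 highest, the most raised and the most lowered gene of each division list, the highest gene of each cell type list, and the 5 genes most like Spc25 and Knstrn) were chosen with earlier results of these data known. A gene that the rule names is not reported here. Haus4 and Clasp1 lie outside it and were named after their values were seen, as were Xist, Ddx3y and the genes near Spc25 and Knstrn. Alternatives changed the pseudocount to 0.1, the minimum, the scale, the test, the pairing and the libraries.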

Additional observations from a re-analysis of the deposited data

Results flagged for a closer look

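Mki67 in heterozygous 1, at 0.296 FPKM, stood far above the other 3 of the 4 control libraries, which lay between 0 and 0.00762 FPKM. The gap made up 0.974 of the range of the 4, beyond the critical value of 0.829 of Dixon's test. Chance sets off this test in about 1 of 20 groups, and 8 genes were looked at. The value rested on 42 reads in a library rich in lens transcripts.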

How the results depend on the processing

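The log2 differences of Spc25 and Knstrn between knockout and each control group kept their sign under all 14 alternatives. Both genes were chosen for their fall, and every knockout library lay below every control library, so the kept sign is not a test. Of the 56 tested division genes, 0 moved into a call in any of the 4 comparisons under any alternative but voom. Voom was fitted to 14788 genes, but its calls among the listed genes were not counted. The call of Agbl5 between knockout and wildtype was also lost without the lens-rich libraries (limma, adjusted p = 0.0518), with the replicate block (0.0841) and with the male libraries (0.237). Counts of called genes depended more on the choices. With values rescaled to a common sum (TPM), which moved the median of all genes by -0.16 between knockout and wildtype, -0.07 between knockout and heterozygous and -0.12 between knockout and all controls, 28 genes were called against wildtype (50 in the reported fit) and 63 against all controls (95). Limma-voom on recovered reads called 77 against wildtype, 76 against heterozygous (49 in the reported fit) and 150 against all controls. Without knockout 1 and heterozygous 1, the lens-rich libraries, the counts against wildtype, heterozygous and all controls were 3, 0 and 48, and with the 5 male libraries 0, 0 and 31. With no minimum, 19 genes were called between heterozygous and wildtype (0 in the reported fit).

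Leaving out 1 library at a time gave 5 to 53 calls against wildtype: 5 without wildtype 1 or 2, and 19, 21 and 32 without knockout 1, 2 and 3. Against heterozygous it gave 14 to 40 calls: 14 without heterozygous 1, 30, 22 and 25 without knockout 1, 2 and 3, and 31 without either wildtype library. Against all controls it gave 45 to 90: 47, 45 and 53 without knockout 1, 2 and 3, 60 without heterozygous 2, and 63 and 59 without wildtype 1 and 2. Between heterozygous and wildtype it gave 0 to 3. A genotype left with 1 library was assumed to vary like the others.

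On the TPM scale the knockout difference of Spc25 was -0.77 against wildtype, -0.56 against heterozygous and -0.66 against all controls, and that of Knstrn -1.07, -1.21 and -1.14. With a pseudocount of 0.1, Knstrn differed by -1.02, -1.23 and -1.12, and with voom by -1.08, -1.30 and -1.18. Spag5 changed sign between heterozygous and wildtype, to -0.07 on the TPM scale and to -0.07 without heterozygous 2, within a range of -0.07 to 0.09 over the libraries left out.

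Same-numbered libraries did not deviate together in all pairs (correlations of -0.0233 to 0.43). The highest value was that of knockout 1 with heterozygous 1, both rich in lens transcripts. With 2 libraries in each control genotype, the correlations of a library with them are opposite by construction, so this check cannot decide on a pairing. The numbers were not taken as a pairing. With the number as a replicate block, 3 genes were called against wildtype, 0 against heterozygous and 38 against all controls, with knockout 3 alone in its block.

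The planned count tests were not run, because the table holds FPKM; voom and the male libraries were chosen after seeing the data. Depth limits Spc24, Ndc80, Nuf2, Mki67 and Top2a, with 0 to 42 reads a library. Of 364 list medians recomputed, 64 moved by more than their spread, and the causes of these changes were not tested.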
